A study of Mus musculus with 8 samples.

Results

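Goblet cells of the mouse colon make the mucus that separates the epithelium from bacteria, and 8 of their genes are described here in colon adenomas of 2 mouse models. The genes were chosen by name for their part in this cell type: Muc2, Zg16, Fcgbp and Tff3 (mucus products), Agr2 (a folding factor), Atoh1 and Spdef (transcription factors) and Retnlb (an inducible secreted protein). All 8 were among the 31189 genes of the deposited tables, and all 8 were among the 17218 genes that passed the filter on low counts. In this tissue Muc2 forms the gel of the mucus layer, and Atoh1 directs progenitors to the secretory lineage, in which Spdef drives goblet cell maturation. Notch signals between neighbouring cells hold Atoh1 down, and Wnt signalling keeps the crypt base proliferative.

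RNA was sequenced from 3 adenomas and 1 section of non-adenoma colon in each model. The first model was the ApcMin/+ mouse, which carries a germline truncating allele of the Wnt inhibitor Apc, untreated, on the C57BL/6J background, with colons taken at 110 to 120 days of age. The second was the wild-type C57BL/6J mouse that received 10 mg/kg of the carcinogen azoxymethane (AOM) by intraperitoneal injection when 6 to 7 weeks old, then 3 cycles of 2% dextran sulfate sodium (DSS) in the drinking water, with colons taken 70 days after AOM. According to the labels, the AOM/DSS adenomas had wild-type Apc and carried point mutations that protect beta-catenin from degradation. The sections came from the mutant or treated mice themselves, so no library represents an untreated wild-type colon. Which mouse gave which sample is not in the labels, and p-values therefore measure the spread between these samples. Libraries held 18156974 to 22720164 counts, and 3 counts corresponded to 0.128 to 0.172 CPM (counts scaled to a common library size), the limit that a count of 0 allows.

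Adenoma samples and sections differed in makeup, and ApcMin/+ adenoma 3 differed from the other adenomas of its model. All 13 epithelial markers were detected in every library, and their summed CPM was 12760 and 12860 in the sections and 7429 to 10250 in the adenomas. All 8 smooth muscle markers were detected in every library, and their sum was 6157 and 8823 CPM in the sections and 229.5 to 1754 CPM in the adenomas. The 12 colonocyte markers summed to 6793 CPM in the ApcMin/+ section, 4024 CPM in the AOM/DSS section and 480.4 to 2163 CPM in the adenomas, with Slc51a at 0 in every library but the ApcMin/+ section. ApcMin/+ adenoma 3 had 31.8% of the colonocyte sum of its section, against 7.59% and 7.07% in the other ApcMin/+ adenomas and 32.3% to 35.6% in the AOM/DSS adenomas. These sums do not describe every marker. Car4 had 411.6 CPM in the AOM/DSS section and 0.384 to 2.51 CPM in its adenomas. Guca2a had 197.8 CPM in that section and 18.2 to 36.0 CPM in its adenomas. Which markers carried the sums was not examined. ApcMin/+ adenoma 3 had 28.5% of the smooth muscle sum, against 8.9% and 9.7% in the other ApcMin/+ adenomas and 2.6% to 4.96% in the AOM/DSS adenomas. Results on the goblet cell genes are given with and without this adenoma, and the part of tissue makeup in them was not tested. Among the adenomas it also had the highest levels of the 8 goblet cell genes. Fits without it therefore favour calls of a fall and are given as descriptions. In bulk tissue, fewer goblet cells and less RNA per goblet cell cannot be told apart.

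Promoter sequences are shown for the gel mucin and the pair of transcription factors, so that the letters upstream of the genes that fell together can be read beside their values. Each runs 5′ to 3′ from 250 bases before to 50 bases after the gene start in RefSeq (GRCm38.p6, a later build than the mm9 of the deposited tables). Capitals mark the motifs found. These were CAGCTG (an E-box of the kind that Atoh1 and related factors bind), CTTTGAT (a TCF/LEF motif, the class through which beta-catenin acts) or TTTATG (a CDX motif).
Muc2 (chr7:141690090-141690389, plus strand): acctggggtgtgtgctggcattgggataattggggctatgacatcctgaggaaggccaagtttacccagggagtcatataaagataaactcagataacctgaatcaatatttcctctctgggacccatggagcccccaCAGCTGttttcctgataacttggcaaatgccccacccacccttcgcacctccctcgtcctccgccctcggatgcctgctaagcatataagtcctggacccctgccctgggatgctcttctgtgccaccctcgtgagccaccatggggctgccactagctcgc
Atoh1 (chr6:64728875-64729174, plus strand): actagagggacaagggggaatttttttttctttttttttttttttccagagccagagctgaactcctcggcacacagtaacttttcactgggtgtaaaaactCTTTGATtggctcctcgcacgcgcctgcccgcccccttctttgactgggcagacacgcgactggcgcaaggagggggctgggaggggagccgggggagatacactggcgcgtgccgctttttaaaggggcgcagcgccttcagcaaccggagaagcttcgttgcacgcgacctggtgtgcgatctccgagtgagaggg
Spdef (chr17:27728902-27729201, minus strand): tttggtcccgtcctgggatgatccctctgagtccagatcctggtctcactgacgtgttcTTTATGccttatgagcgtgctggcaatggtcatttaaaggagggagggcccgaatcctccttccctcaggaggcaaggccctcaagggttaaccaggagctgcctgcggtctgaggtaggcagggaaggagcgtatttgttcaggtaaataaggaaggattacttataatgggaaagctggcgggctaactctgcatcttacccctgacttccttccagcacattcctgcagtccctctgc
The promoter table held 5 of the 8 genes and not Zg16, Tff3 or Retnlb. CAGCTG lay 112 bases upstream of the Muc2 start and 208 bases upstream of the Fcgbp start, and 16.3% of 32851 promoters held it. CTTTGAT lay 148 bases upstream of the Atoh1 start, and 3.73% of promoters held it. TTTATG lay 191 bases upstream of the Spdef start and, on the other strand, 47 bases upstream of the Agr2 start, and 11.9% of promoters held it. A STAT6 motif (in 6.95% of promoters), the FOXA motif TGTTTAC (3.65%) and the unfolded protein response motif TGACGTGG (0.676%), searched on both strands like the others, were found in none of the 5 windows. No motif overlapped another in these windows, and a match is a description of letters, not of a bound site.

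Every goblet cell gene was lower in 5 of the 6 adenomas than in the section of the same model, and 7 of the 8 were also lower in the remaining one, ApcMin/+ adenoma 3. Together the 8 genes took 1.741% of all counts in the ApcMin/+ section and 1.384% in the AOM/DSS section. In the ApcMin/+ adenomas they took 0.05395%, 0.05761% and 0.6947%, and in the AOM/DSS adenomas 0.1461%, 0.09263% and 0.02324%. The sections were highest, ApcMin/+ adenoma 3 was intermediate, and the other 5 adenomas were all below it. The median gene stood at 3.912%, 6.414% and 34.74% of the section CPM in ApcMin/+ adenomas 1 to 3, and at 13.25%, 8.289% and 2.264% in AOM/DSS adenomas 1 to 3.

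Differences were tested across all genes with edgeR's quasi-likelihood test, and a gene was called at a Benjamini-Hochberg adjusted p under 0.05. Over both models, 6 of the 8 genes were called lower in adenomas, where 15.8% of all tested genes were called lower. Their median log2 fold change was -3.09, against 0.07 for all tested genes. The 6 were Muc2, Zg16, Tff3, Agr2, Spdef and Atoh1, while Fcgbp and Retnlb did not pass. Without ApcMin/+ adenoma 3 all 8 were called, where 16.3% of tested genes were called lower. That adenoma had the highest level of all 8 genes among the adenomas. Leaving it out favours such calls, so they are not further support for the fall. Leaving out any other single adenoma gave 4 of the 8 called, where 2035 to 2765 of all tested genes were called lower. Without the ApcMin/+ section none of the 8 was called (2.54% of tested genes were), nor without the AOM/DSS section (6.06%). Sections and adenomas did not overlap for 7 of the 8 genes, all but Retnlb, where 17.5% of tested genes were lower with no overlap.

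**Figure D1:**
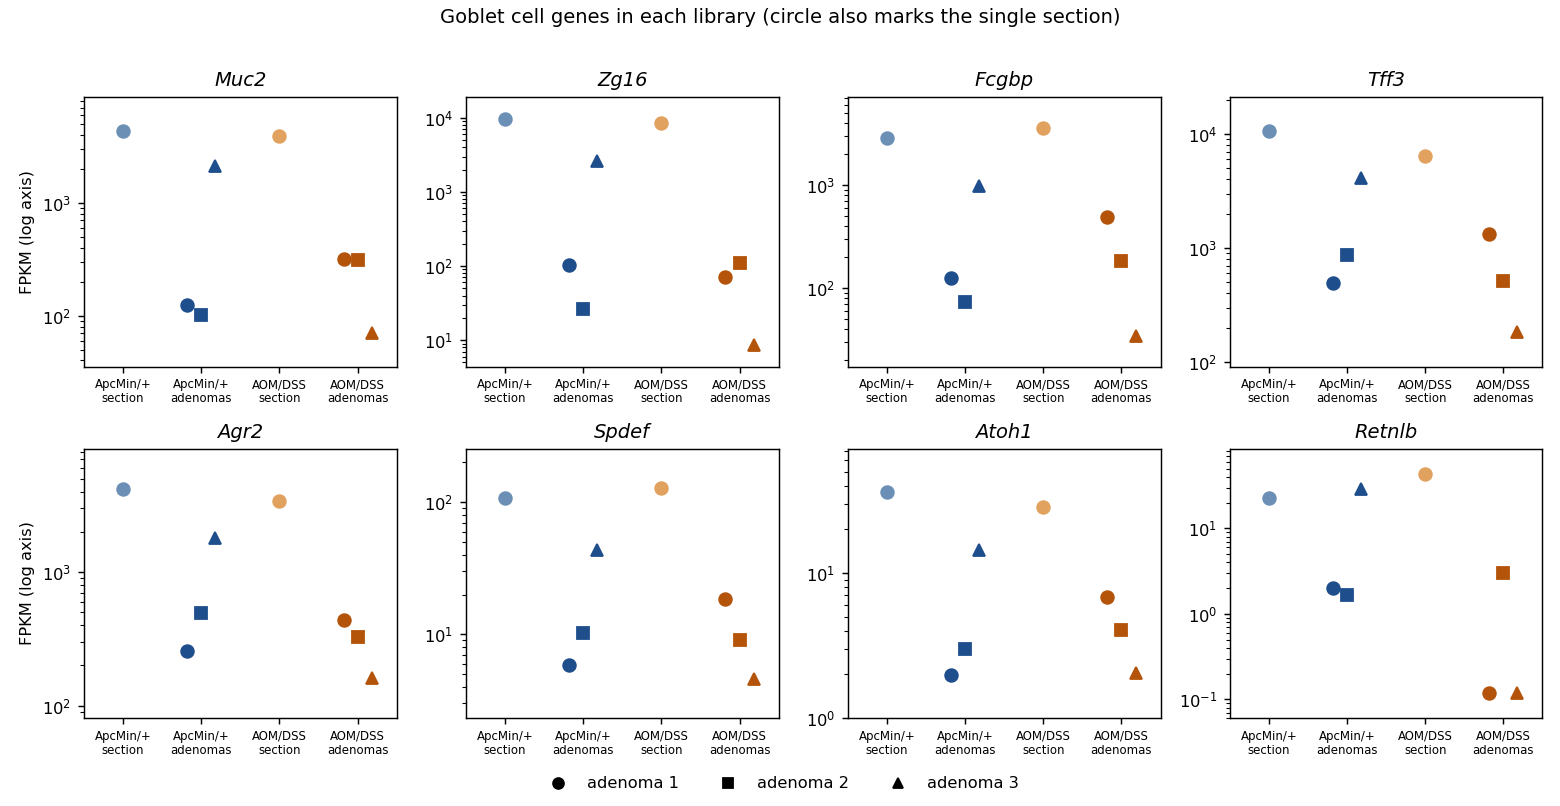
Level of the 8 goblet cell genes in each of the 8 libraries, as FPKM (length-scaled) on a log axis with its own range in each panel. Points are single libraries, with circles, squares and triangles for adenomas 1, 2 and 3. In 7 panels every adenoma lies below both sections, and in the Retnlb panel ApcMin/+ adenoma 3 (28.5 FPKM) lies above the ApcMin/+ section (22.4 FPKM).

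Muc2 encodes the gel-forming mucin of the colon. Its CPM was 6114 in the ApcMin/+ section and 145, 125 and 2483 in ApcMin/+ adenomas 1, 2 and 3. It was 4043 in the AOM/DSS section and 370, 346 and 76.9 in AOM/DSS adenomas 1, 2 and 3. Both sections were above every adenoma, and the adenomas of the models overlapped, because ApcMin/+ adenoma 3 was above and the other ApcMin/+ adenomas within the AOM/DSS range. Over both models Muc2 fell by 3.40 ± 1.06 on the log2 scale (SE, adjusted p = 0.042, edgeR). Without ApcMin/+ adenoma 3, the adenoma with the most Muc2, the fall was 4.76 ± 0.61 (adjusted p = 0.00288, edgeR). Over 17 settings (the main fit and its alternatives) Muc2 was called lower in 8. The ordered means were 6114 in the ApcMin/+ section, 4043 in the AOM/DSS section, 917.4 ± 1356 in the ApcMin/+ adenomas and 264.2 ± 162.7 in the AOM/DSS adenomas (SD, n = 3 each). The last pair did not differ beyond its spread, and with 1 library each the sections have no spread.

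Zg16, a lectin that binds Gram-positive bacteria and keeps them away from the epithelium, had the lowest fold change of the 8 genes over both models. Its CPM was 6165 in the ApcMin/+ section and 55.5, 14.6 and 1489 in the adenomas of that model. In AOM/DSS mice it was 4884 in the section and 37.9, 62.5 and 4.65 in the adenomas. ApcMin/+ adenoma 3 held 24.2% of its section's level, and the other 5 adenomas at most 1.28%. Its log2 fold change over both models was -5.895 ± 1.70 (SE, adjusted p = 0.0329, edgeR), the 28th lowest fold change of 17218 tested genes. Without ApcMin/+ adenoma 3 Zg16 fell by 7.29 ± 0.91 (adjusted p = 0.00263, edgeR). Zg16 was called lower in 10 of the 17 settings over both models.

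Fcgbp encodes an IgG Fc-binding protein that is a main component of colonic mucus. Its CPM was 4272 in the ApcMin/+ section and 128, 84.3 and 1515 in the adenomas, and 2828 in the AOM/DSS section and 583, 261 and 37.2 in the adenomas. No adenoma reached a section, but the adenomas differed 15.7-fold among themselves in AOM/DSS mice and 18.0-fold in ApcMin/+ mice. The fold change over both models was -3.09 ± 1.09 (log2, SE) and did not pass (adjusted p = 0.0621, edgeR). It passed without ApcMin/+ adenoma 3, at -4.39 ± 0.93 (adjusted p = 0.0131, edgeR). Of the 17 settings over both models, Fcgbp passed in 5. The estimated counts of Fcgbp were fractional in 8 of 8 libraries, as for reads shared with other features, and its FPKM per count differed 2.04-fold between libraries, so its level is less certain than that of the other 7 genes.

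Tff3, a trefoil peptide secreted with mucus that aids epithelial repair, was the highest of the 8 genes by FPKM in 7 of the 8 libraries, Zg16 being higher in the AOM/DSS section. Its CPM was 1689 in the ApcMin/+ section and 64.9, 121 and 562 in the adenomas. In AOM/DSS mice it was 897 in the section and 170, 67.3 and 23.5 in the adenomas. Each adenoma lay below the section of its own model and of the other model. Tff3 fell by 3.08 ± 0.81 on the log2 scale over both models (SE, adjusted p = 0.0244, edgeR).

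Agr2, a protein disulfide isomerase of the endoplasmic reticulum that mouse goblet cells need to make Muc2, had CPM values of 2172 in the ApcMin/+ section and 106, 219 and 799 in the adenomas. The AOM/DSS values were 1543 in the section and 185, 143 and 66.9 in the adenomas. The sections were above all adenomas, and the AOM/DSS adenomas differed only 2.77-fold among themselves. Agr2 fell by 3.09 ± 0.66 on the log2 scale over both models (SE, adjusted p = 0.0126, edgeR), and its adjusted p was the lowest of the 8 genes.

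Both transcription factors fell. Atoh1, the basic helix-loop-helix factor without which the mouse intestine makes no secretory cells, had CPM values of 101 in the ApcMin/+ section and 4.13, 6.69 and 32.7 in the adenomas. Its AOM/DSS values were 67.2 in the section and 14.2, 9.12 and 4.26 in the adenomas. Sections and adenomas did not overlap, and Atoh1 fell by 2.84 ± 0.68 on the log2 scale over both models (SE, adjusted p = 0.0177, edgeR). Spdef, an ETS-family factor that promotes goblet cell maturation, had CPM values of 114 in the ApcMin/+ section and 4.54, 9.40 and 38.7 in the adenomas. Its AOM/DSS values were 102 in the section and 14.8, 8.22 and 5.59 in the adenomas. The order of the adenomas within each model was the same for Spdef as for Atoh1, and Spdef fell by 3.08 ± 0.66 (SE, adjusted p = 0.0129, edgeR).

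Retnlb encodes resistin-like molecule beta, which goblet cells secrete in response to bacteria and helminths. It was thinly covered, with 174 counts (9.97 CPM) in the ApcMin/+ section and 16, 14 and 236 counts (0.726, 0.620 and 10.8 CPM) in the adenomas. In AOM/DSS mice it had 352 counts (17.6 CPM) in the section and 1, 21 and 1 counts (0.0429, 1.12 and 0.0426 CPM) in the adenomas. ApcMin/+ adenoma 3 matched its section within counting error, at 108.4% (95% counting interval 88.7% to 133%), while the other 5 adenomas were below their sections. In AOM/DSS adenoma 1, with its single count, Retnlb was 410.5-fold lower than in the section (95% counting interval 73.2 to 16260). These intervals cover counting error only. The fold change over both models, -3.98 ± 1.59 (log2, SE), did not pass (adjusted p = 0.0888, edgeR). It passed without ApcMin/+ adenoma 3 at -4.80 ± 0.96 (adjusted p = 0.0113, edgeR), the only 1 of 17 settings in which Retnlb passed.

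**Figure D2:**
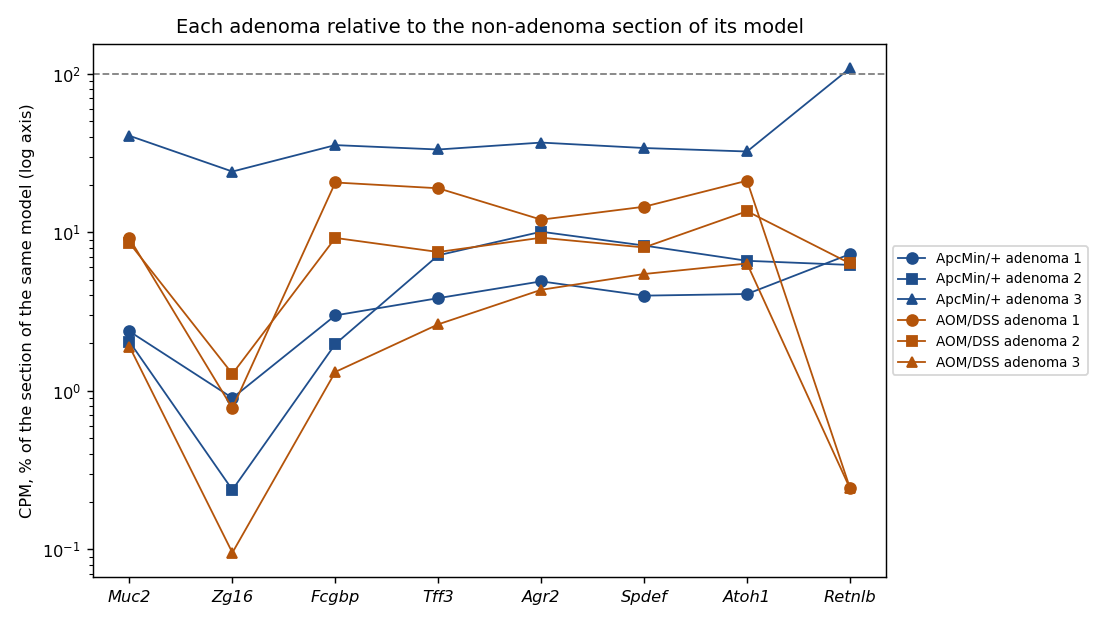
CPM of the 8 genes in each adenoma as a percentage of the section of its model, on a log axis, with the dashed line at 100%. Lines join the genes of 1 adenoma for reading only. ApcMin/+ adenoma 3 holds 24.2% to 40.6% of the section level for 7 genes and 108.4% for Retnlb, and the other 5 adenomas dip at Zg16, to between 0.0952% and 1.28%.

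Within each model, no goblet cell gene passed the test with all libraries, although all 8 fold changes were negative in each. In ApcMin/+ mice the median log2 fold change was -2.75 and 6.35% of tested genes were called lower. Of the 8, 3 were lower at an unadjusted p under 0.05, where 17.8% of tested genes were. All 3 adenomas were below the section for 7 of the 8 genes, Retnlb being the exception, as they were for 40% of tested genes. In AOM/DSS mice the median was -3.49, and 2.63% of tested genes were called lower. Of the 8, 7 were lower at an unadjusted p under 0.05, where 13.4% of tested genes were. All 8 were lower in the 3 adenomas than in the section there, as were 31.3% of tested genes. Each section is 1 library and was taken to vary like the adenomas.

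Leaving out ApcMin/+ adenoma 3, the adenoma with the highest levels of the 8 genes, raised these counts. That choice favours such calls, so they are not further support for the fall. In ApcMin/+ mice 7 of the 8 genes were then called, where 13.1% of tested genes were called lower, with Muc2 at -5.50 ± 0.87 and Zg16 at -7.46 ± 1.5 (log2, SE, adjusted p = 0.00914 and 0.0186, edgeR), and Retnlb did not pass (adjusted p = 0.0892). In AOM/DSS mice, whose own libraries were all kept and which share the estimate of spread, 6 of the 8 were then called, where 7.32% of tested genes were called lower. Fcgbp and Tff3 were not (adjusted p = 0.106 and 0.0598, edgeR). With the 4 AOM/DSS libraries fitted alone 2 of the 8 were called, where 3.87% of tested genes were called lower. With the 4 ApcMin/+ libraries alone none was, where 1.25% were.

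**Figure D3:**
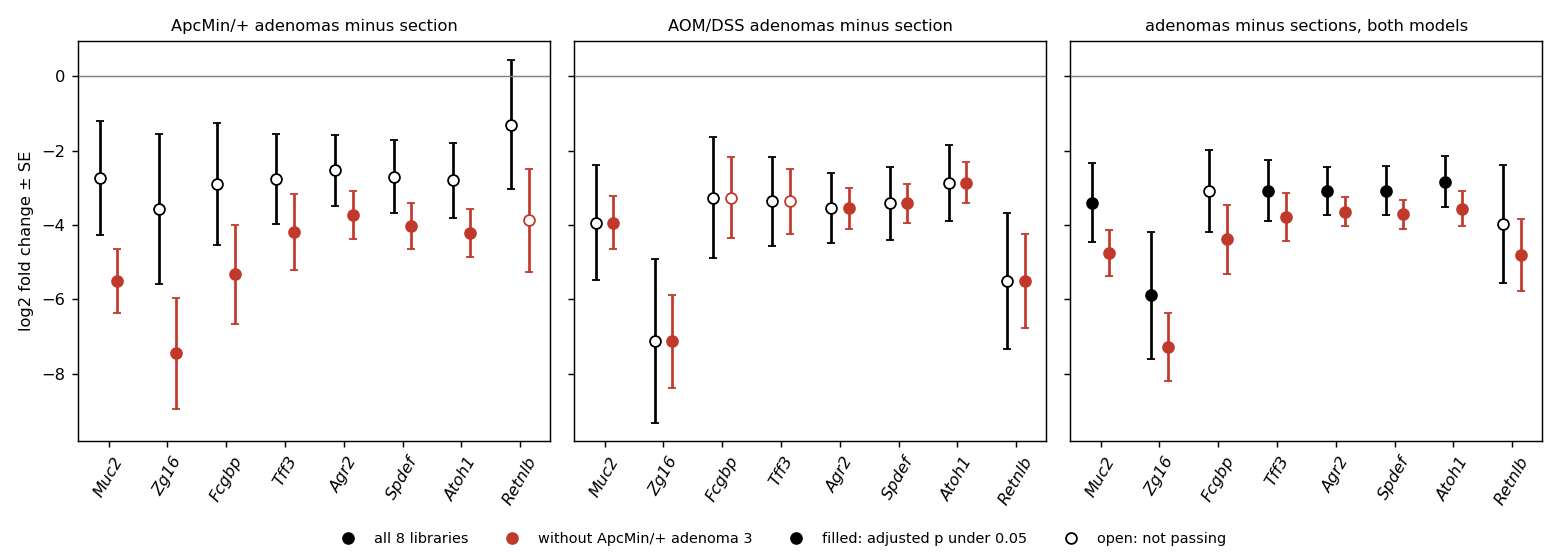
Log2 fold change ± SE of each gene in 3 comparisons, with all 8 libraries (black) and without ApcMin/+ adenoma 3 (red). Filled points passed the test at an adjusted p under 0.05. All points lie below 0, and 0, 0 and 6 black points are filled from left to right, against 7, 6 and 8 red points.

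The adenomas of the models were then compared with each other. No goblet cell gene passed in either direction with edgeR, where 18.1% of tested genes were called. None had an unadjusted p under 0.05, where 36.1% of tested genes did. DESeq2 called none either and gave 1 an unadjusted p under 0.05, as did edgeR without the filter on low counts, and edgeR with scaling by epithelial markers gave 3. The fold changes of AOM/DSS against ApcMin/+ adenomas ran from -3.89 ± 1.77 for Zg16 to -0.66 ± 0.81 for Atoh1 (log2, SE). Groups overlapped for all 8 genes, where 20.6% of tested genes were lower and 22.4% higher with no overlap. Without ApcMin/+ adenoma 3 the direction turned for Muc2 (0.97 ± 0.64), Fcgbp (1.47 ± 1.00), Spdef (0.45 ± 0.49) and Atoh1 (0.76 ± 0.51), and none passed. The fall from section to adenoma was also not shown to differ between the models: no gene of the 17218 was called in that test with edgeR, 1369 had an unadjusted p under 0.05, and DESeq2 called 191, of which none was a goblet cell gene.

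Among the ratios computed between the 8 genes, only those with Zg16 differed without overlap between sections and adenomas. How often ratios between other genes do so was not examined. Compared per length, the FPKM of Zg16 was 2.19 times that of Muc2 in both sections (2.194 and 2.187), and 0.124 to 1.25 times in the 6 adenomas, with no overlap. Atoh1 also fell, but less than Zg16, so its ratio to Zg16 was higher in the adenomas. It was 3.36 to 3.80 FPKM per 1000 of Zg16 in sections and 5.48 to 233 in adenomas, again with no overlap. Against Muc2, Atoh1 stood at 7.34 and 8.34 FPKM per 1000 in the sections and at 13.1 to 29.5 in 5 adenomas, while ApcMin/+ adenoma 3 was at 6.86. Tff3 per Muc2 overlapped between sections (1.65 and 2.42) and adenomas (1.67 to 8.53). Spdef per Atoh1 also overlapped, at 3.00 and 4.45 in the sections and 2.23 to 3.42 in the adenomas. So did Fcgbp, Agr2 and Spdef per Muc2. FPKM per count of Muc2 and Spdef differed between libraries by 1.25-fold and 1.66-fold, which limits ratios of these genes to that precision. By FPKM, Zg16 was above Muc2, Agr2 and Fcgbp in both sections and in ApcMin/+ adenoma 3, and below all 3 in the other 5 adenomas.

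**Figure D4:**
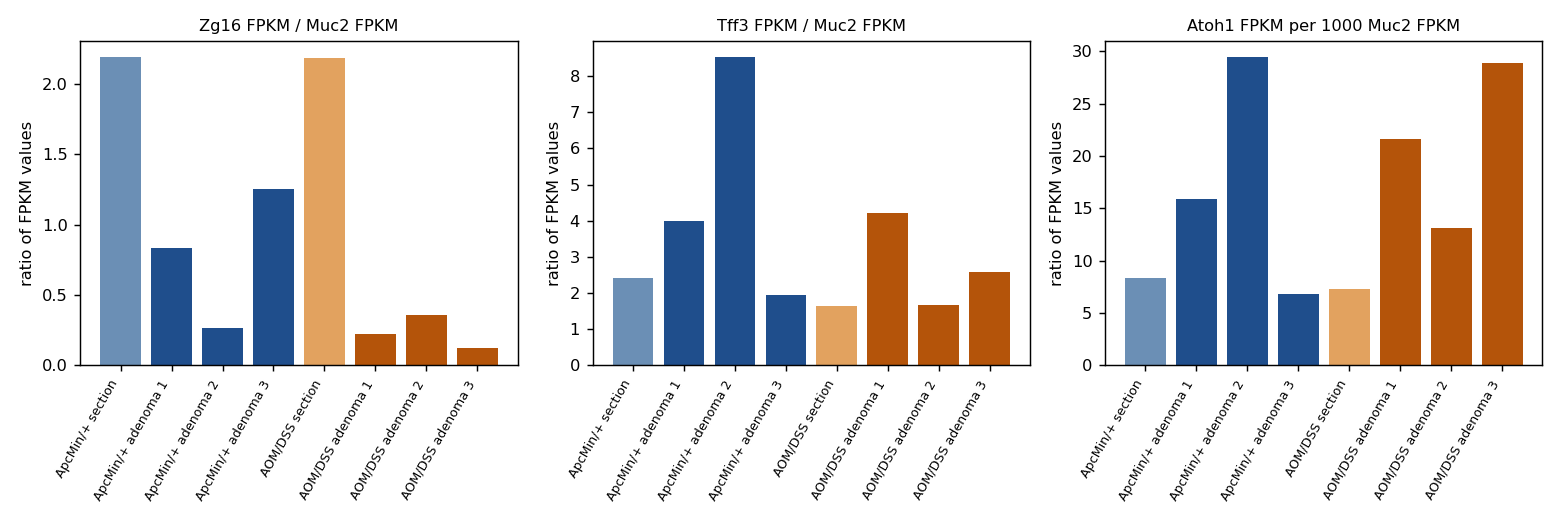
Ratios of FPKM values within each library, for Zg16 per Muc2, Tff3 per Muc2 and Atoh1 per 1000 Muc2. Bars are single libraries and start at 0. Both sections stand at 2.19 in the Zg16 panel, above every adenoma, and ApcMin/+ adenoma 3 is nearest to the sections in the Zg16 and Atoh1 panels.

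Relative to the 13 epithelial markers the mucin was still lower in adenomas. For each 100 counts of those markers there were 47.6 and 31.7 Muc2 counts in the sections. There were 1.95, 1.42 and 24.2 in the ApcMin/+ adenomas, and 3.82, 4.17 and 0.870 in the AOM/DSS adenomas. When libraries were scaled by these markers, 7 of the 8 genes were called lower over both models, where 7.43% of tested genes were, and the median of all genes shifted to 0.617.

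The profiles of the 8 genes over the 8 libraries were set beside those of the other genes, as the root mean square difference of centred log2 CPM, among 11813 genes (11814 for Retnlb) averaging 2 or more in log2 CPM. The libraries are shared and the tissue contrast dominates, so these distances are descriptions. Atoh1 and Spdef were nearest to each other, at 0.228. Muc2 was at 0.465 from both Fcgbp and Capn9, a calpain, and then came Fer1l6 (0.476), Mep1a (0.516), a brush border protease, and Tpsg1 (0.57). For Spdef the nearest other genes were Syt7 (0.285), a synaptotagmin of regulated secretion, Guca2a (0.35), the guanylin precursor, Cgref1 (0.369) and Slc12a8 (0.403). For Atoh1 they were Gsta1 (0.283), Ffar2 (0.342), a short-chain fatty acid receptor, Syt7 (0.346) and Atp2a3 (0.377). For Retnlb they were Gsdmc4 (0.493), Chgb (0.686), an enteroendocrine granule protein, Muc3 (0.724) and Hsd11b2 (0.744). Zg16 was the farthest from the rest of the set, at 1.5 from Muc2 and 2.21 from Atoh1.

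Most genes that fold, pack and release mucus fell. Of 20 such genes, 18 were called lower over both models and none higher, with a median log2 fold change of -1.88 against 0.07 for all genes, where 15.8% of tested genes were called lower and 18.3% higher. Pdia5, a disulfide isomerase, had CPM values of 110 and 89.0 in the sections and 23.7 to 49.7 in the adenomas, and fell by 1.65 ± 0.18 on the log2 scale (SE, adjusted p = 0.00473, edgeR). Nlrp6, an innate sensor linked to mucus release, fell by 2.33 ± 0.32 (SE, adjusted p = 0.00526, edgeR). Creb3l4, an endoplasmic reticulum-bound transcription factor, fell by 1.92 ± 0.30 and Best2, a bestrophin channel of colonic goblet cells, fell by 4.47 ± 1.00 (SE, adjusted p = 0.00652 and 0.0146, edgeR). The 2 that did not pass were Xbp1 at -0.54 ± 0.19 and the chaperone Hspa5 at 0.11 ± 0.21 (adjusted p = 0.0644 and 0.705, edgeR). These last values were chosen after they were seen. Within ApcMin/+ mice 10 of the 20 were called lower, and within AOM/DSS mice 5, where 6.35% and 2.63% of tested genes were. Without ApcMin/+ adenoma 3 the counts were 18 and 13, and the shares of all tested genes also rose, to 13.1% and 7.32%.

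Most enzymes that build mucin O-glycans also fell. Of 20 tested, 13 were called lower and 2 higher over both models, with a median of -1.40. Of all tested genes 15.8% were called lower and 18.3% higher. St3gal6, a sialyltransferase, fell by 1.32 ± 0.21 on the log2 scale, Fut2, a fucosyltransferase, by 1.48 ± 0.24, and Galnt7, which acts on peptides that already carry a first sugar, by 1.94 ± 0.38 (SE, adjusted p = 0.00674, 0.00689 and 0.0103, edgeR). The higher pair, named after their values were seen, was Gcnt4 at 1.48 ± 0.30, a core 2 branching enzyme, and St3gal1 at 0.97 ± 0.24 (adjusted p = 0.0109 and 0.0201, edgeR). Within the models 6 of the 20 were called lower in ApcMin/+ and 1 in AOM/DSS mice, where 6.35% and 2.63% of tested genes were. The counts were 13 and 8 without ApcMin/+ adenoma 3, where 13.1% and 7.32% of tested genes were called lower.

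St6galnac1, which adds the sialic acid of the sialyl-Tn structure, differed between the adenomas of the models. It had 0 counts in all 3 ApcMin/+ adenomas and 1.20, 2.24 and 0.597 CPM in the AOM/DSS adenomas, with 0.401 and 0.801 CPM in the ApcMin/+ and AOM/DSS sections. The AOM/DSS mean of 1.35 ± 0.83 CPM (SD, n = 3) was at least 9.80-fold higher than the limit of 0.137 CPM that 0 counts allow in 1 ApcMin/+ adenoma library (adjusted p = 0.0199, edgeR). Its level was low in every library. The counts of St6galnac1 were fractional, at 7.34 and 16.07 in the sections and 27.62, 42.09 and 13.74 in the AOM/DSS adenomas. As for Fcgbp, this occurs with reads shared with other features, so its level is less certain. Between the adenomas 1 of 20 O-glycan enzymes was called higher and 0 lower. Of all tested genes 10.2% and 7.9% were, so this count is no larger than that share.

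Other genes listed as goblet cell products moved in both directions, and which cells made them was not tested. Of 15 tested, 7 were called lower and 3 higher over both models, with a median of -1.74. Of all tested genes 15.8% were called lower and 18.3% higher, so the count called higher was near that share. Clca1, a mucus metalloprotease named after its values were seen, had CPM values of 6032 in the ApcMin/+ section, 81.2, 37.1 and 870 in the adenomas, 1117 in the AOM/DSS section and 15.1, 71.1 and 3.67 in the adenomas. It fell by 4.75 ± 1.20 on the log2 scale (SE, adjusted p = 0.0213, edgeR). Hepacam2 fell by 3.37 ± 0.68 and Spink4, a secreted peptide of goblet cells, by 2.59 ± 0.54 (SE, adjusted p = 0.011 and 0.012, edgeR). Retnla, a relative of Retnlb, had 9.46 and 4.20 CPM in the sections and at most 0.275 CPM in the adenomas (adjusted p = 0.00623, edgeR).

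The 3 that rose were Itln1, Ang4 and Tff1, the last pair named after their values were seen. Itln1, an intestinal lectin, had CPM values of 5.04 in the ApcMin/+ section and 103.5, 256 and 98.9 in the adenomas, and 28.0 in the AOM/DSS section and 271, 199 and 279 in the adenomas. Every adenoma was above both sections, and Itln1 rose by 3.87 ± 0.62 on the log2 scale (SE, adjusted p = 0.00655, edgeR). Ang4, an antimicrobial ribonuclease that mouse Paneth and goblet cells make, rose by 2.16 ± 0.45 (SE, adjusted p = 0.012, edgeR). Beside these rises, the 6 Paneth cell markers, all detected in every library, summed to 262.9 and 555.8 CPM in the sections and 1828 to 3830 CPM in the adenomas, and their part in the result was not tested. Tff1 reached at most 1.79 CPM in any library. Within ApcMin/+ mice 1 listed gene was called lower and 3 higher, where 6.35% of tested genes were called lower and 10.1% higher. Within AOM/DSS mice 0 were called lower and 1 higher, where 2.63% and 2.38% of tested genes were. Without ApcMin/+ adenoma 3 the counts were 10 lower and 3 higher, and 6 lower and 1 higher. Of 17154 tested genes, 2240 were then called lower and 2179 higher in ApcMin/+, and 1255 and 800 in AOM/DSS.

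**Figure D5:**
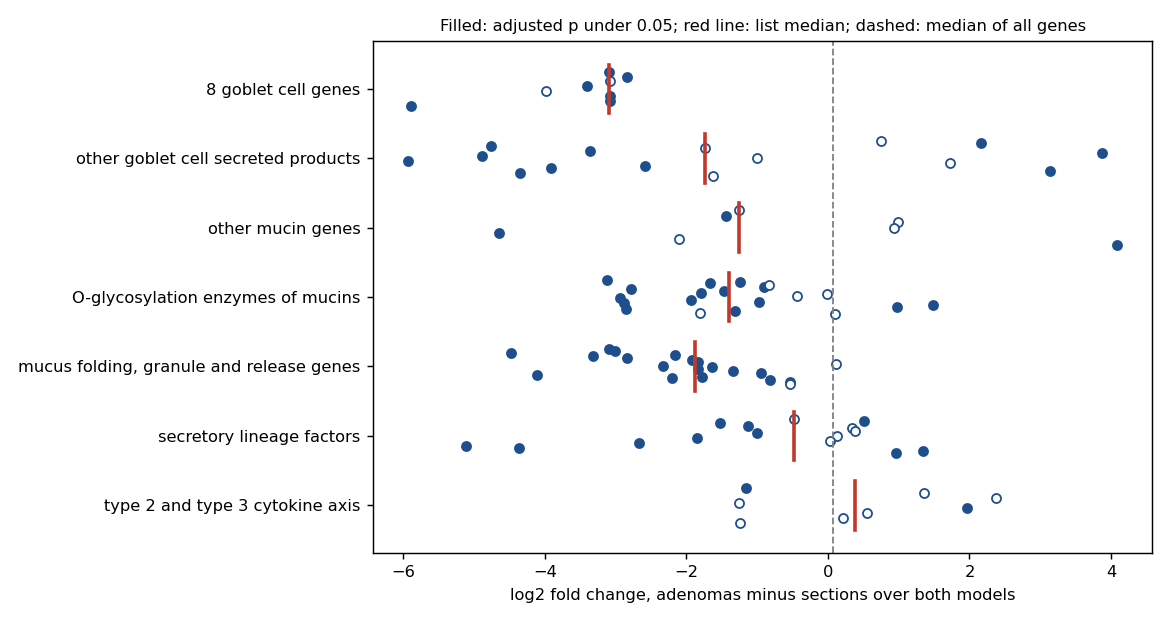
Log2 fold change over both models for the 8 goblet cell genes and 6 gene lists. Each point is a gene, filled where the adjusted p was under 0.05, the red line is the median of the list and the dashed line the median of all tested genes (0.07). The 8 genes all lie below -2, the folding and release genes lie left of the dashed line but for 1, and the lineage factors lie on both sides.

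Among the other mucins, 2 of 7 tested genes were called lower and 1 higher, with a median of -1.26, where 15.8% of all tested genes were called lower and 18.3% higher. The lower genes were the membrane mucins Muc13 (a fall of 1.44 ± 0.33) and Muc3 (a fall of 4.65 ± 1.31), and the higher gene was the gel-forming mucin Muc6, at 4.09 ± 1.02 (log2, SE, adjusted p = 0.0151, 0.0301 and 0.0206, edgeR). Muc6 had 0.745 and 1.80 CPM in the sections, 20.2, 11.8 and 16.6 in the ApcMin/+ adenomas and 3.35, 23.6 and 49.8 in the AOM/DSS adenomas. All 6 adenomas were above both sections. The gel-forming mucins Muc5ac and Muc5b had at most 2 and 1 counts in any library and were not tested. No mucin was called within either model with all libraries. Leaving out ApcMin/+ adenoma 3 gave 2 called lower in each, where 13.1% (ApcMin/+) and 7.32% (AOM/DSS) of tested genes were called lower.

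The other regulators of the secretory lineage split. Of 15 tested, 7 were called lower and 3 higher over both models, with a median of -0.48. Of all tested genes 15.8% were called lower and 18.3% higher, so the count called higher was near that share. Gfi1, a repressor that favours goblet and Paneth over enteroendocrine fate in the mouse, fell by 1.85 ± 0.30 and Cbfa2t3, a co-repressor, by 1.53 ± 0.26 (log2, SE, adjusted p = 0.00687 and 0.00736, edgeR). Klf4, a factor that mouse colonic goblet cells need to mature, fell by 2.68 ± 0.52, and the enteroendocrine factors Neurog3 and Neurod1 were at -4.37 ± 0.83 and -5.12 ± 0.95 (log2, SE, adjusted p = 0.00994, 0.0094 and 0.00887, edgeR), these 3 named after their values were seen. Neurog3 had 23 and 45 counts in the sections and at most 7 in any adenoma. Neurod1 had 105 and 69 counts in the sections and at most 24 in any adenoma. With so few counts the size of these 2 falls is poorly bounded. The 8 enteroendocrine markers summed to 719.5 and 460.8 CPM in the sections, 109.2 to 200.9 CPM in the ApcMin/+ adenomas and 6.53 to 13.9 CPM in the AOM/DSS adenomas, with Cck at 0 in all 3 AOM/DSS adenomas and Gcg and Insl5 also at 0 in adenoma 3, and their part in the result was not tested.

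The Notch side of the lineage did not move as 1 group. Notch1, the receptor, had CPM values of 20.5 in the ApcMin/+ section and 71.8, 51.7 and 47.3 in the adenomas, and 51.0 in the AOM/DSS section and 138, 95.4 and 123 in the adenomas. It rose by 1.34 ± 0.22 on the log2 scale (SE, adjusted p = 0.00678, edgeR), with the ApcMin/+ adenomas overlapping the AOM/DSS section. The following were named after their values were seen. Sox9, a Wnt-responsive progenitor and Paneth cell factor, rose by 0.96 ± 0.25 and Dll1, a Notch ligand, fell by 1.14 ± 0.29 (adjusted p = 0.0247 and 0.0209, edgeR). Hes1, the Notch target that represses Atoh1, was at 0.03 ± 0.22 (SE, adjusted p = 0.939, edgeR), with CPM values of 64.9 and 72.4 in the sections and 43.5 to 86.6 in the adenomas. Under scaling by the epithelial markers the median of the 15 factors turned to 0.08, with 5 called lower and 4 higher. Of 17218 tested genes, 1280 were called lower and 6797 higher under that scaling.

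Between the adenomas of the models, 2 of 15 lineage factors were called higher and 2 lower in AOM/DSS adenomas. Of tested genes 10.2% and 7.9% were, so both counts were near those shares. Notch1 was higher by 1.06 ± 0.21 and Foxa2, a forkhead factor of goblet and enteroendocrine cells, lower at -1.28 ± 0.24 (log2, SE, adjusted p = 0.0197 and 0.0179, edgeR). Among the other lists, 1 of 20 folding and release genes and 1 of 15 other goblet cell products were called lower. Both are smaller shares than the 7.9% of all tested genes. The first was Capn8, a stomach-type calpain, at -1.78 ± 0.40 (adjusted p = 0.0293, edgeR). The second was Retnlg, a resistin-like gene that neutrophils also express, at -2.43 ± 0.47 (adjusted p = 0.0197, edgeR). The 6 neutrophil markers, Retnlg among them, summed to 194.9 to 481.4 CPM in ApcMin/+ adenomas and 101.7 to 200.8 CPM in AOM/DSS adenomas, and their part in the Retnlg difference was not tested.

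Cytokines that act on goblet cells were mostly too low to test. Il4, Il5, Il13 and Il25 had between 0 and 4 counts in every library, so that differences in them were not detectable at this depth. Of 8 tested genes of the type 2 and type 3 cytokine axis, 1 was called lower and 1 higher over both models, in each case a smaller share than the 15.8% and 18.3% of all tested genes. Il13ra1, a receptor chain for interleukin 13, fell by 1.16 ± 0.19 and Il33, an alarmin, rose by 1.97 ± 0.51 on the log2 scale (SE, adjusted p = 0.00689 and 0.0225, edgeR). Stat6, the transcription factor downstream of that receptor, was at 0.21 ± 0.11 (SE, adjusted p = 0.177, edgeR).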

How the data were processed

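The authors deposited 3 tables over the 8 libraries: estimated counts per gene, FPKM, and ratios of each adenoma to its section, per the file headers. Reads were placed on mm9, according to the submitters' processing notes. The aligner, counter and annotation were not given in the sources used here. The lowest deposited value of the estimated counts and of FPKM was 1, which was read as an added 1 and subtracted, and the counts were rounded. The authors' deposited ratio table was not used for any value reported.

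Counts were scaled by TMM, filtered by edgeR (minimum count 10, minimum total 15) and tested by the quasi-likelihood method (edgeR 4.0.16, R 4.3.3), with Benjamini-Hochberg adjustment over 17218 genes. A fit with a mean for each of 4 groups left 4 residual degrees of freedom. The fit over both models used terms for model and tissue and left 5. SE is the absolute log2 fold change over the square root of F. CPM uses TMM-scaled libraries. The alternatives were DESeq2 1.42.0, limma 3.58.1 on log2 FPKM, other scalings and filters, and leaving out each library. The code was tested on simulated data.

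The genes, 6 gene lists and motifs were chosen with earlier results of these data known. Beside the 8 genes, up to 3 of each list with the smallest p over both models and up to 2 with the smallest p between the adenoma groups were named, and the 4 nearest profiles of Muc2, Atoh1, Spdef and Retnlb.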

Additional observations from a re-analysis of the deposited data

How the results depend on the processing

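The negative direction of all 8 goblet cell genes against sections, within each model and over both, was kept under every alternative run, while the calls were not. Each section is 1 library, so no spread between sections could be measured, and sequencing depth limits Retnlb, Muc5ac, Muc5b and the cytokines. Over both models, 25 of the alternative values of single genes no longer passed and 6 newly passed. DESeq2 called 5 of the 8, limma on log2 FPKM 7 with a pseudocount of 1 or 0.1 and 5 without the filter. Of 17218 tested genes DESeq2 called 3263 lower, and limma 1741 (pseudocount 1) and 1666 (pseudocount 0.1). Without the filter limma called 1592 of 22925 lower. Leaving out 1 library at a time gave 0 to 8 genes called (880 to 5912 of all genes) over both models, 0 to 7 (354 to 4419) in ApcMin/+, 0 to 6 (0 to 2055) in AOM/DSS, 0 (779 to 2157) between the adenomas and 0 (0) for the difference between models. The calls over both models were 0 without either section, 8 without ApcMin/+ adenoma 3, and 4 when each of the other 5 adenomas was left out. DESeq2 called 4440 genes in ApcMin/+ (main 2824), 2917 in AOM/DSS (main 862), 2 of the 8 among them, and 191 for the difference between models (main 0). For that difference limma called 9 (pseudocount 1), 6 (pseudocount 0.1) and 267 (no filter). Between adenomas it called 1920 without the filter (main 3122). Fitting the 4 ApcMin/+ libraries alone called 951 genes, and the 4 AOM/DSS libraries alone 2 of the 8. Scaling by epithelial markers called 1 of the 8 in AOM/DSS, where 346 of 17218 tested genes were called lower. It called 1844 genes between adenomas, and in ApcMin/+ it moved the share of calls that were lower from 38.7% to 13.8%. Between adenomas, the sign turned without ApcMin/+ adenoma 3 for Muc2 (0.97), Fcgbp (1.469), Spdef (0.4547) and Atoh1 (0.7635). The sign of the difference between models turned without that adenoma for Muc2 (1.568), Zg16 (0.3319), Fcgbp (2.065), Tff3 (0.8192), Agr2 (0.1882), Spdef (0.6099) and Atoh1 (1.358). It turned without AOM/DSS adenoma 3 for Fcgbp (0.1466) and Atoh1 (0.2802), and for Atoh1 under epithelial scaling (0.0135) and limma (0.1179, 0.129 and, without the filter, 0.1179). None of these values passed. Leaving out other adenomas moved these values to as low as -2.304, -1.951, -1.349 and -1.122 between adenomas (Muc2, Fcgbp, Spdef, Atoh1), and to -1.717, -4.271, -1.356, -1.542, -1.459, -1.195 and -0.5288 for the difference between models (Muc2, Zg16, Fcgbp, Tff3, Agr2, Spdef, Atoh1). The replicate numbers are not said to pair samples between models. Deviations of same-numbered adenomas correlated at -0.109, -0.322 and -0.278, and those of differently numbered adenomas at -0.00882 to 0.258. With so few adenomas these values cannot decide whether samples were paired. A fit with the replicate block called 541 genes and 0 of the 8, with Fcgbp turned to 0.3686. List counts under other scalings and without ApcMin/+ adenoma 3 were added after seeing the data. Over both models no called gene of the 6 lists changed sign with DESeq2, upper quartile or epithelial scaling, and the cause of the changed calls was not tested.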
